A study of Mus musculus with 2 samples.

Results

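The cone phototransduction cascade is described here through 10 genes. They were followed across the cell classes of the mouse retina at postnatal day 7 (P7), in a Mettl14 conditional knockout (Mettl14-cKO) and in controls. The genes were Opn1sw, Opn1mw, Arr3, Gnat2, Gngt2, Pde6c, Pde6h, Cnga3, Cngb3 and Guca1a, each taken by its symbol from the 32285 genes of the deposited matrices, and all 10 were found. Retinas of Mettl14-cKO mice (Mettl14 fl/fl with the transgene Chx10-Egfp/Cre) gave 1 single-cell library, and age-matched controls (Mettl14 fl/fl or fl/wt, for which the labels name no Cre) gave the other. Every animal therefore carried at least 1 floxed Mettl14 allele, and the Cre was driven by Chx10, a gene of retinal progenitors. Cells were dissociated with papain and tagged at the 3′ end of their polyadenylated RNA with the 10x Genomics kit v3.1, in which each molecule carries a unique molecular identifier (UMI). The labels do not give the number or sex of the animals, nor whether retinas were pooled. With 1 library per genotype no test between genotypes could be made. All intervals below are 95% intervals that cover counting error only, not the spread between animals or preparations.

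Cones use this cascade to turn light into an electrical signal. A cone opsin that has absorbed light activates the cone G protein transducin. Transducin relieves the inhibition of a phosphodiesterase that hydrolyses cyclic GMP, and a channel held open by cyclic GMP then closes. Arrestin ends the activity of the opsin, and a calcium sensor of the guanylate cyclase helps to restore cyclic GMP. Mouse cones make short-wavelength opsin (Opn1sw) before birth and gain medium-wavelength opsin (Opn1mw) during the first postnatal weeks. Many mouse cones carry both opsins, with more Opn1mw in dorsal and more Opn1sw in ventral retina. Mettl14 is a subunit of the enzyme complex that places N6-methyladenosine on messenger RNA.

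Cone barcodes were those in which at least 4 of 9 members were found, Gngt2 being left out of the gate because rods and precursors also carried it. Cngb3 was kept in the gate, although rods and precursors carried it as well. Its level in cones was 1.93 times that in rods in the Mettl14-cKO library and 2.31 times in the control library. For Gngt2 these values were 2.66 in the Mettl14-cKO library and 2.91 in the control library. For the level of a member in cones, that member was left out of its own gate, so that 4 of the other members had to be found. The gate gave 484 cone barcodes among 13502 in the Mettl14-cKO library (3.58%, interval 3.28 to 3.91%) and 498 among 11426 in the control library (4.36%, 3.99 to 4.75%). The order of the libraries turned with 8 cone markers that are no members as the gate, at 4.42% of Mettl14-cKO and 3.95% of control barcodes, and without barcodes that scored for a second class, at 0.274% of Mettl14-cKO and 0.193% of control barcodes. Those 8 markers were Kcne2, Rxrg, Thrb, Ccdc136, Otop3, Cd59a, Clca3a1 and Gnb3. In Mettl14-cKO cone barcodes 2 of them, Rxrg included, were higher by 1.5-fold or more with intervals apart, and 0 were lower. Of all genes there, 9.36% were higher by that rule. Barcodes with 3 members held a median of 9.20 gate member UMIs per 10000 UMIs in the Mettl14-cKO library and 9.55 in the control library. In barcodes with 4 members, just inside the gate, the medians were 31.0 in the Mettl14-cKO library and 30.4 in the control library. Few barcodes lay near that boundary, with 52 Mettl14-cKO and 37 control barcodes at 3 members and 38 Mettl14-cKO and 25 control barcodes at 4. Mettl14 itself, read as the check of the labels, stood at 17.4 CPM (UMIs per 1000000 UMIs of the class; 112 UMIs) in Mettl14-cKO cone barcodes and at 37.7 CPM (276 UMIs) in control cone barcodes, a ratio of 0.463 (0.368 to 0.579). Where the floxed exons lie is not given in the sources used here, and a transcript without them could still be counted at its 3′ end.

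The cone barcodes also carried rod transcripts, and this touches every level given below. Their median depth was 10130.5 UMIs in the Mettl14-cKO library and 11607.5 in the control library, against 2450 Mettl14-cKO and 2427.5 control UMIs in rod barcodes. A list of 14 rod markers, none of them at 0, came to a median of 276 UMIs per 10000 in Mettl14-cKO cone barcodes (range 7.03 to 478) and 336 in control cone barcodes (60.8 to 637). In rod barcodes the list came to 339 per 10000 in the Mettl14-cKO library and 396 in the control library, and in bipolar barcodes to 6.61 in the Mettl14-cKO library and 9.99 in the control library. Between genotypes, 1 of the 14 rod markers was higher and 4 were lower in Mettl14-cKO cone barcodes, by 1.5-fold or more with intervals apart. By the same rule 9.36% of all genes there were higher and 7.36% lower. Apart from cone, the best-scoring class was rod for 304 Mettl14-cKO and 411 control cone barcodes, and 37 Mettl14-cKO and 22 control cone barcodes scored for no second class. From the shallowest to the deepest of 5 depth bins, the median of rod marker UMIs per barcode went up, to 794 in the Mettl14-cKO library and 1044 in the control library. The median of the 9 gate members stayed between 45 and 69 UMIs per barcode in the Mettl14-cKO library and between 51 and 88 in the control library. Whether these barcodes hold more than 1 cell was not tested. Because the rod UMIs enter the total, each member was also expressed as mean UMIs per cone barcode and per 1000 UMIs of the other gate members in the same barcodes. When barcodes were clustered without the 10 members, 280 cone barcodes fell in a cluster with 1660 control barcodes among 1694 and 299 in one with 1298 Mettl14-cKO barcodes among 1303. A further 249 cone barcodes fell in the only cluster that met the criteria for cones, which had 90 Mettl14-cKO and 177 control barcodes. The libraries shared 57 cell barcode sequences as deposited, of which 4 were cone barcodes in the Mettl14-cKO library and 2 in the control library.

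**Figure D1:**
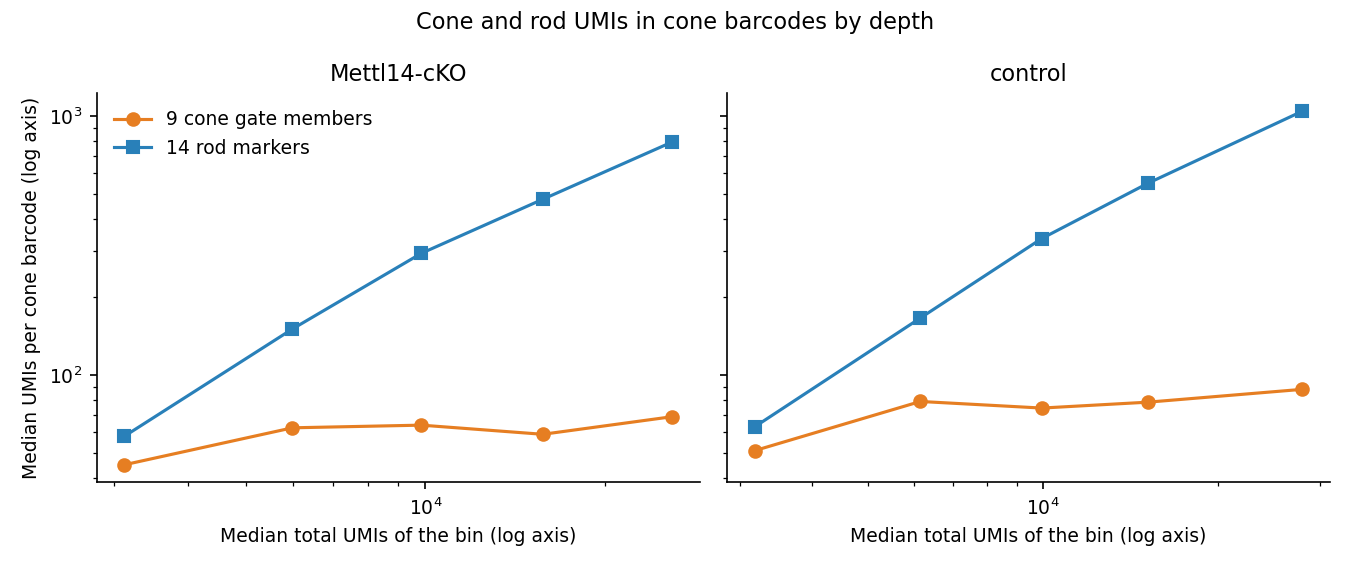
Median UMIs per cone barcode (log axis) of the 9 cone gate members (circles) and of the 14 rod markers (squares), against the median total UMIs of 5 depth bins (log axis), for the Mettl14-cKO library (left) and the control library (right). The gate members stay between 45 and 69 UMIs in the Mettl14-cKO library and between 51 and 88 in the control library, while the rod markers reach 794 UMIs in the deepest Mettl14-cKO bin and 1044 in the deepest control bin.

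Of the 10 members, 1 was lower and 0 were higher in Mettl14-cKO cone barcodes. A gene was called when its CPM differed by 1.5-fold or more and its Poisson intervals in the libraries lay apart, for genes with at least 30 UMIs over both libraries. The member called was Opn1mw. Over all 11416 genes measured in cone barcodes, 7.36% were called lower and 9.36% higher, so 1 of 10 is close to the background. The median log2 ratio (Mettl14-cKO over control) was -0.06 for the members and -0.06 for all genes. Pde6h, Gngt2, Opn1sw and Guca1a were the members with the most UMIs, and Opn1mw and Cnga3 those with the fewest, in both libraries. At the lower of the alternative fold thresholds, 2 members were called lower (Opn1mw and Pde6c) and 1 higher (Arr3), where 15.2% of all genes were lower and 13.5% higher. In 3′ tag data a level in CPM is not corrected for transcript length, so these orders are of UMIs.

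**Figure D2:**
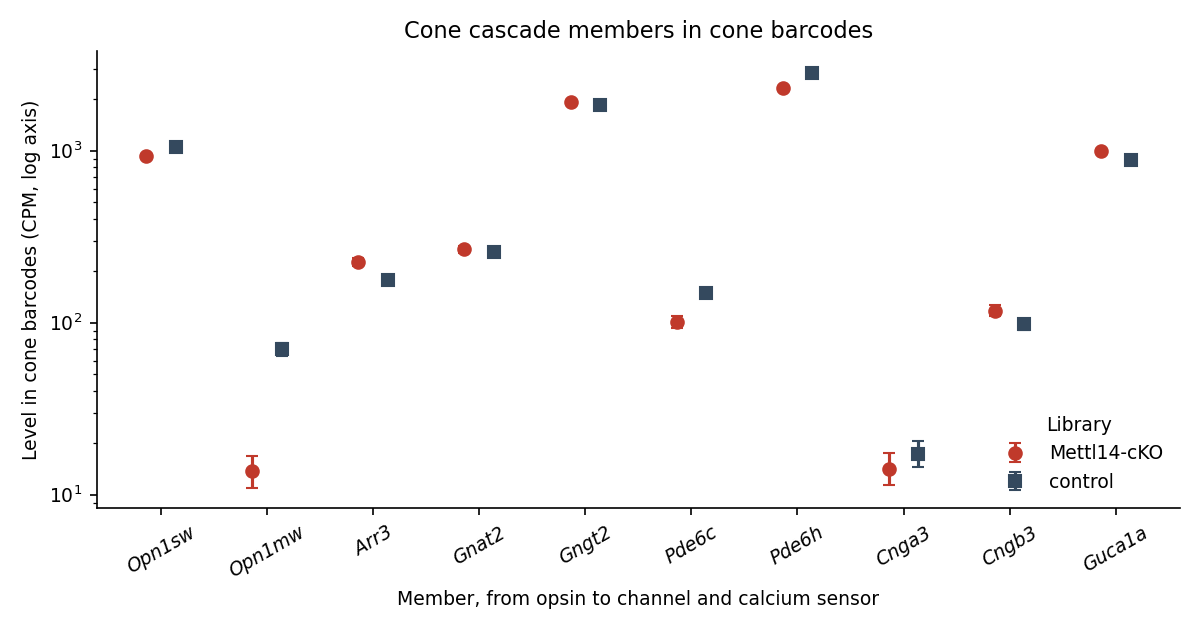
Level of each member in cone barcodes gated without it, in CPM on a log axis, with 95% Poisson intervals, for the Mettl14-cKO library (circles) and the control library (squares), 1 library each. Opn1mw stands at 13.7 CPM in the Mettl14-cKO library and 70.0 CPM in the control library, while the other 9 members differ by less than 1.5-fold.

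Of the opsins, Opn1mw was called lower in Mettl14-cKO cone barcodes and Opn1sw was not called. Medium-wavelength opsin (Opn1mw, ENSMUSG00000031394, chrX:74127464-74150760, plus strand, GRCm38) had 88 UMIs in 484 Mettl14-cKO cone barcodes, against 512 UMIs in 497 control cone barcodes. This was 13.7 CPM (11.0 to 16.9) in the Mettl14-cKO library and 70.0 CPM (64.0 to 76.3) in the control library, a ratio of 0.196 (0.154 to 0.246) and a log2 ratio of -2.35. Short-wavelength opsin (Opn1sw, ENSMUSG00000058831, chr6:29376671-29388468, minus strand) had 5801 UMIs in Mettl14-cKO cone barcodes, or 929.5 CPM (906 to 954), and 7604 UMIs in control cone barcodes, or 1053 CPM (1030 to 1077). Its ratio of 0.882 (0.853 to 0.913) did not reach 1.5-fold. Of all opsin UMIs in barcodes gated without either opsin, Opn1mw made up 1.46% (1.17 to 1.80%; 86 of its UMIs beside 5794 of Opn1sw) in 457 Mettl14-cKO barcodes. In 480 control barcodes it made up 6.27% (5.75 to 6.82%; 508 beside 7590).

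The windows of 250 bases before the starts of these opsin genes are shown because Opn1mw was the member called in cone barcodes, with Opn1sw as the other opsin. That of Arr3, the cone arrestin described next, which was not called, is shown as a further member. The sequences are RefSeq's on GRCm38.p6, at chrX:74127216-74127465 (plus strand) for Opn1mw, chr6:29380514-29380763 (minus strand) for Opn1sw and chrX:100605247-100605496 (plus strand) for Arr3. These starts are RefSeq's, whereas the gene spans are GENCODE's, and the Opn1sw window lies inside its GENCODE span, which begins further upstream. Capitals mark TAATCC or TAATCT on either strand, letters bound by homeodomain factors of the Crx and Otx2 family:
Opn1mw: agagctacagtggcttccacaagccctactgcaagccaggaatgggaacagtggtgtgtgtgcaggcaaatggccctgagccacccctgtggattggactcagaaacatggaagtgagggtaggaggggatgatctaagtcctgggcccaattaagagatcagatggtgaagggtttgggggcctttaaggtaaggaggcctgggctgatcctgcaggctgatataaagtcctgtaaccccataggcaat
Opn1sw: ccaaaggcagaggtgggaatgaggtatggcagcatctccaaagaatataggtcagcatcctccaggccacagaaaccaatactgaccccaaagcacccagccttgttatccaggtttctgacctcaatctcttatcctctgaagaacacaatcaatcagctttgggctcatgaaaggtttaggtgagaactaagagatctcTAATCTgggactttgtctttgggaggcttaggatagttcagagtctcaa
Arr3: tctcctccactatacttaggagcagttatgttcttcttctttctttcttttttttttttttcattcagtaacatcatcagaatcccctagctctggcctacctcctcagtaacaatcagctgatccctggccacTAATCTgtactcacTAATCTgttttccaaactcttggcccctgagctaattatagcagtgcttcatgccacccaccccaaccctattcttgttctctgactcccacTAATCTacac
Opn1mw held neither motif, Opn1sw held TAATCT once, beginning 49 bases before the start, and Arr3 held it 3 times, the nearest beginning 10 bases before the start. Windows were at hand for 7 of the 10 members. Of those not printed, Gnat2 and Guca1a each held TAATCC once, and Pde6h and Cnga3 held neither motif, so Opn1mw was not alone in lacking them. TAATCC was found in 6.25% of 32851 such windows of all genes and TAATCT in 7.31%, and the matches did not overlap each other. A match is a description of these letters and not a binding site.

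Opn1mw was found in fewer cone barcodes of the Mettl14-cKO library as well as at a lower level in them. With every barcode thinned to 1500 UMIs, 2.31% of 476 Mettl14-cKO cone barcodes (1.16 to 4.10%) and 9.46% of 497 control cone barcodes (7.03 to 12.4%) held an Opn1mw UMI. At full depth the shares were 10.3% (7.77 to 13.4%) in the Mettl14-cKO library and 24.5% (20.8 to 28.6%) in the control library. At 1500 UMIs the shares were closer to each other in the cone cluster built without the members, at 4.88% in the Mettl14-cKO library and 9.77% in the control library. They were also closer among the 37 Mettl14-cKO and 22 control cone barcodes without a second class, less any under 1500 UMIs, at 6.45% in the Mettl14-cKO library and 9.09% in the control library. In the main set, thinning left out 8 Mettl14-cKO barcodes and 0 control barcodes. In rod barcodes, which should lack the gene, the share at full depth was 0% in the Mettl14-cKO library and 0.139% in the control library. At 1500 UMIs it was 0% (upper bound 0.201%) in Mettl14-cKO and 0.0674% (upper bound 0.243%) in control rod barcodes, so the shares in cone barcodes lay above the background at equal depth. Counted with at least 3 Opn1mw UMIs, 10 of 457 Mettl14-cKO barcodes and 66 of 480 control barcodes remained when neither opsin was in the gate. Barcodes with Opn1mw averaged 1.79 of its UMIs in the Mettl14-cKO library and 4.27 in the control library. The most Opn1mw UMIs in a barcode were 8 in the Mettl14-cKO library and 21 in the control library.

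**Figure D3:**
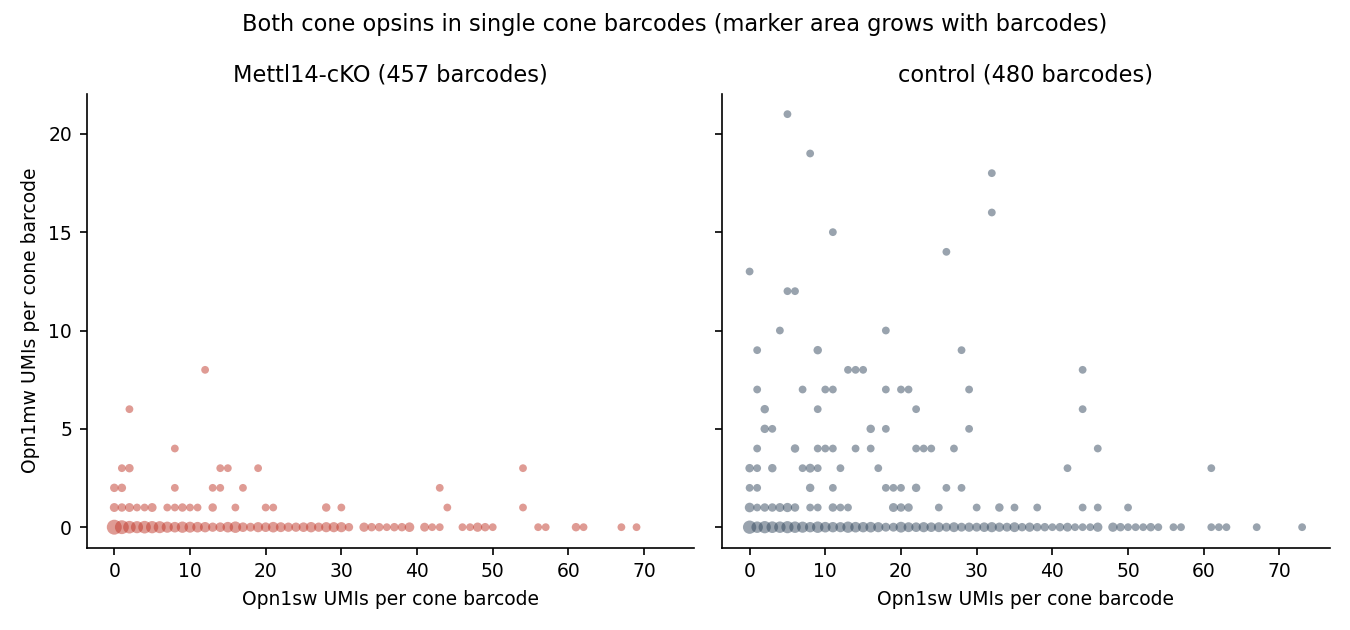
Opn1mw UMIs against Opn1sw UMIs in single cone barcodes gated without either opsin, for the Mettl14-cKO library (left, 457 barcodes) and the control library (right, 480 barcodes); marker area grows with the number of barcodes at a point. Opn1mw reaches 8 UMIs in the Mettl14-cKO library and 21 in the control library, and in both libraries most barcodes with Opn1mw also hold Opn1sw at this full depth.

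At full depth, most cone barcodes with Opn1mw also carried Opn1sw in both libraries. Both opsins were found in 43 Mettl14-cKO barcodes (9.41%) and 110 control barcodes (22.9%), and Opn1mw alone in 5 Mettl14-cKO and 9 control barcodes. Opn1sw alone was found in 356 Mettl14-cKO barcodes (77.9%, 73.8 to 81.6%) and 331 control barcodes (69.0%, 64.6 to 73.1%), and neither opsin in 53 Mettl14-cKO (11.6%) and 30 control barcodes (6.25%). Thinned to 1500 UMIs, 5 Mettl14-cKO barcodes held both opsins and 6 Opn1mw alone, against 35 control barcodes with both and 11 with Opn1mw alone. At that depth Opn1sw alone was found in 57.0% of Mettl14-cKO barcodes (52.3 to 61.6%) and 56.0% of control barcodes (51.5 to 60.5%), so its full-depth difference was not seen at equal depth. Barcodes with Opn1mw had a median of 8 Opn1sw UMIs in the Mettl14-cKO library and 11 in the control library. Barcodes without it had a median of 7 Opn1sw UMIs in the Mettl14-cKO library and 12 in the control library, so the medians with and without Opn1mw were 1 UMI apart in each library. The other members did not all follow. Pde6h averaged 40.7 UMIs in Mettl14-cKO barcodes with Opn1mw and 30.8 in those without it, and 47.9 in control barcodes with it and 40.8 in those without it. Arr3 averaged 4.23 and 3.04 UMIs in Mettl14-cKO barcodes with and without Opn1mw, and 3.33 and 2.48 in control barcodes. Median depth with and without Opn1mw was 10688.5 and 10590 UMIs in the Mettl14-cKO library, and 13419 and 11122 in the control library.

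Opn1mw kept its direction at every depth and under each alternative, but not its size. Mean Opn1mw UMIs per cone barcode lay between 0.136 and 0.209 over the 5 depth bins of the Mettl14-cKO library and between 0.529 and 1.26 in the control library, so the bins of the libraries did not overlap. In cone barcodes under 6000 UMIs the ratio was 0.389 (29 Mettl14-cKO against 59 control UMIs), and without barcodes that had any second class it was 0.336 (15 Mettl14-cKO against 28 control UMIs). In the cluster that met the criteria for cones it was 0.543 (0.329 to 0.859; 22 Mettl14-cKO against 126 control UMIs). Whether counting used strand is not given in the sources used here. It is therefore not shown here whether reads of Opn1sw, Gngt2 and Pde6h were kept apart from those of Calu, Abi3 and Arhgdib on the opposite strand. The same holds for Cngb3 and the pseudogene Gm11877 on the same strand.

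Cone arrestin (Arr3, ENSMUSG00000060890, chrX:100605497-100618493, plus strand), which binds the activated opsin and ends its signal, stood at 224.7 CPM (213 to 237; 1418 UMIs) in Mettl14-cKO cone barcodes. In control cone barcodes it stood at 176.8 CPM (167 to 187; 1281 UMIs), a ratio of 1.27 (1.18 to 1.37). The intervals lay apart, with the Mettl14-cKO library the higher, but the difference was below 1.5-fold. Arr3 was found in 79.9% of Mettl14-cKO and 79.8% of control cone barcodes, against 1.05% of Mettl14-cKO and 0.748% of control rod barcodes.

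Both transducin members differed by less than 1.1-fold. Gnat2 (ENSMUSG00000009108, chr3:108092789-108101432, plus strand), the cone alpha subunit that binds GTP, stood at 267 CPM (254 to 280) in Mettl14-cKO and 257 CPM (245 to 269) in control cone barcodes, a ratio of 1.04 (0.973 to 1.11). Gngt2 (ENSMUSG00000038811, chr11:95837216-95845734, plus strand), the cone gamma subunit, stood at 1911 CPM (1878 to 1946) in the Mettl14-cKO library and 1837 CPM (1806 to 1869) in the control library, a ratio of 1.04 (1.02 to 1.07). On the scale of mean UMIs per cone barcode both ratios lay below 1, at 0.941 (0.880 to 1.01) for Gnat2 and 0.938 (0.915 to 0.961) for Gngt2.

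The phosphodiesterase members stood lower in the Mettl14-cKO library, without reaching 1.5-fold in CPM. Pde6c (ENSMUSG00000024992, chr19:38132781-38183958, plus strand), the catalytic subunit, had 100.8 CPM (93.1 to 109; 637 UMIs) in Mettl14-cKO cone barcodes and 149.7 CPM (141 to 159; 1085 UMIs) in control cone barcodes. Its ratio was 0.673 (0.610 to 0.743), just short of the threshold, and it was found in 65.8% of Mettl14-cKO and 79.1% of control cone barcodes. As mean UMIs per cone barcode it was past the threshold, at 1.34 in the Mettl14-cKO library and 2.22 in the control library (ratio 0.606, 0.548 to 0.669). On that scale 13.9% of all genes were called lower and 6.63% higher. Pde6h (ENSMUSG00000064330, chr6:136923832-136968865, plus strand), the inhibitory gamma subunit, was the most abundant member in UMIs. It stood at 2318 CPM (2280 to 2356; 14298 UMIs) in Mettl14-cKO and 2842 CPM (2803 to 2882; 20213 UMIs) in control cone barcodes, a ratio of 0.815 (0.798 to 0.833). Its median per barcode was 29 UMIs (quartiles 14 and 45) in the Mettl14-cKO library and 41 (31.3 and 53) in the control library.

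The channel subunits and the calcium sensor did not pass the threshold. Cnga3 (ENSMUSG00000026114, chr1:37214434-37263384, plus strand), the subunit that can form a channel alone, had 91 UMIs in Mettl14-cKO cone barcodes, or 14.2 CPM (11.4 to 17.4), and 127 UMIs in control cone barcodes, or 17.3 CPM (14.5 to 20.6). The interval of its ratio, 0.817 (0.617 to 1.08), includes 1, and no difference was detectable at this depth. Cngb3 (ENSMUSG00000056494, chr4:19280850-19510623, plus strand), the modulatory subunit, stood at 117.5 CPM (109 to 126) in Mettl14-cKO and 97.8 CPM (90.8 to 105) in control cone barcodes, a ratio of 1.20 (1.08 to 1.33). Guca1a (ENSMUSG00000023982, chr17:47394558-47400584, minus strand), the calcium sensor GCAP1 that regulates guanylate cyclase, stood at 999 CPM (974 to 1024) in the Mettl14-cKO library and 881 CPM (859 to 903) in the control library, a ratio of 1.13 (1.10 to 1.18). Its median per barcode was 12 UMIs in both libraries.

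Each member was also set against the other gate members rather than against the whole barcode. By its construction, the members can hardly all rise or all fall together on this scale. Per 1000 UMIs of the other gate members, the ratio was 1.43 for Arr3, 1.34 for Cngb3, 1.32 for Guca1a, 1.16 for Gnat2 and 1.16 for Gngt2. It was 0.972 (0.939 to 1.01) for Opn1sw, 0.908 (0.686 to 1.20) for Cnga3, 0.826 for Pde6h, 0.742 for Pde6c and 0.216 for Opn1mw. These ratios are not independent of each other, and Pde6h and Opn1sw make up much of the UMIs they are taken against. In the cone cluster of 90 Mettl14-cKO and 177 control barcodes, 5 members were called higher in CPM (Opn1sw, Arr3, Gnat2, Cngb3 and Guca1a) and 1 lower (Opn1mw), where 3.09% of all genes were higher and 2.1% lower. The ratio lay above 1 there for each member but Opn1mw. Depth moved with it, with a median of 4045 UMIs in Mettl14-cKO and 6145 UMIs in control barcodes of that cluster, beside medians of 69 gate member UMIs in Mettl14-cKO and 74 in control barcodes, and its part in the CPM was not tested. With 8 cone markers that are no members as the gate, 4 were called lower (Opn1mw, Pde6c, Pde6h and Cnga3) and 0 higher, and the ratio lay below 1 for each member but Cngb3 (1.09), that of Arr3 barely (0.999), where 7.91% of all genes were lower and 8.73% higher. Barcodes passing that gate held a median of 40 gate member UMIs in the Mettl14-cKO library and 77 in the control library. In cone barcodes with 1 more marker in the gate, 7.19% of all genes were lower and 9.29% higher, and Opn1mw and Pde6c were called lower. In the 37 Mettl14-cKO and 22 control cone barcodes without a second class, 1.31% of genes were lower and 2.23% higher, and Opn1mw and Pde6h were called lower. There Opn1sw (1.13) and Cngb3 (1.37, 0.777 to 2.51) lay above 1, and Pde6c, Arr3, Gnat2, Gngt2 and Guca1a (0.816 to 0.979) lay below it.

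**Figure D4:**
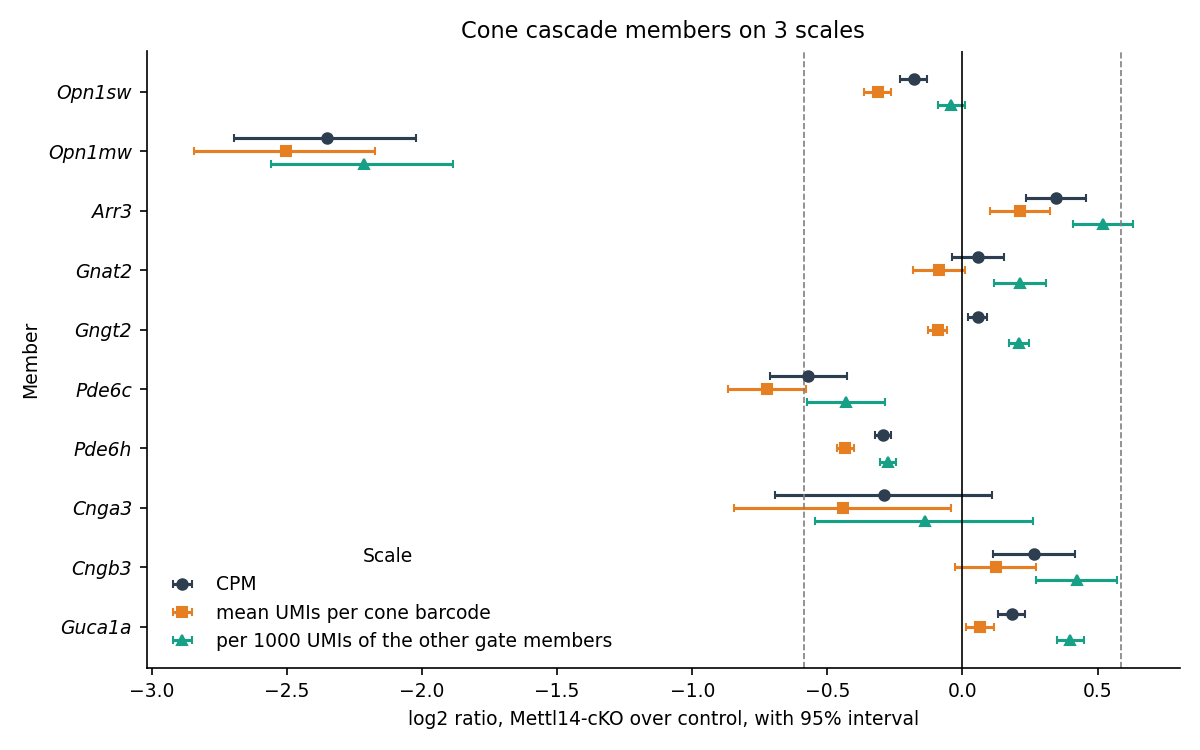
The log2 ratio (Mettl14-cKO over control) of each member in cone barcodes on 3 scales, with 95% intervals that take the denominators as fixed; the dashed lines mark 1.5-fold. Opn1mw lies between -2.50 and -2.21 on all 3 scales, and Pde6c passes the lower line on the scale of mean UMIs per cone barcode, at -0.72.

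Outside cones the cascade was not equally restricted. Between 77.8 and 95.7% of the UMIs of Opn1sw, Opn1mw, Arr3, Gnat2, Pde6c, Pde6h, Cnga3 and Guca1a lay in cone barcodes in either library, as the gate favours. Only 32.0% of the Gngt2 UMIs of the Mettl14-cKO library and 38.9% of those of the control library lay there. For Cngb3 the shares were 28.2% in the Mettl14-cKO library and 34.5% in the control library. Gngt2 was the member most common in photoreceptor precursors, at 1599 CPM in the Mettl14-cKO library and 1912 CPM in the control library, next to 719 CPM in Mettl14-cKO and 631 CPM in control rod barcodes, and 396 CPM in Mettl14-cKO and 366 CPM in control bipolar barcodes. Its level in precursors thus lay close to that in cones. Microglia barcodes held Gngt2 at 390 CPM in the Mettl14-cKO library and 435 CPM in the control library. Cngb3 stood at 63.5 CPM in Mettl14-cKO and 53.8 CPM in control precursors, and at 60.9 CPM in Mettl14-cKO and 42.4 CPM in control rod barcodes. Amacrine barcodes with under 5 rod marker UMIs per 10000 held Cngb3 at 37.4 CPM in the Mettl14-cKO and 48.6 CPM in the control library. Gnat2 was next highest in bipolar barcodes, at 18.8 CPM in the Mettl14-cKO library and 21.1 CPM in the control library, against 2.69 CPM in Mettl14-cKO and 2.77 CPM in control rod barcodes.

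**Figure D5:**
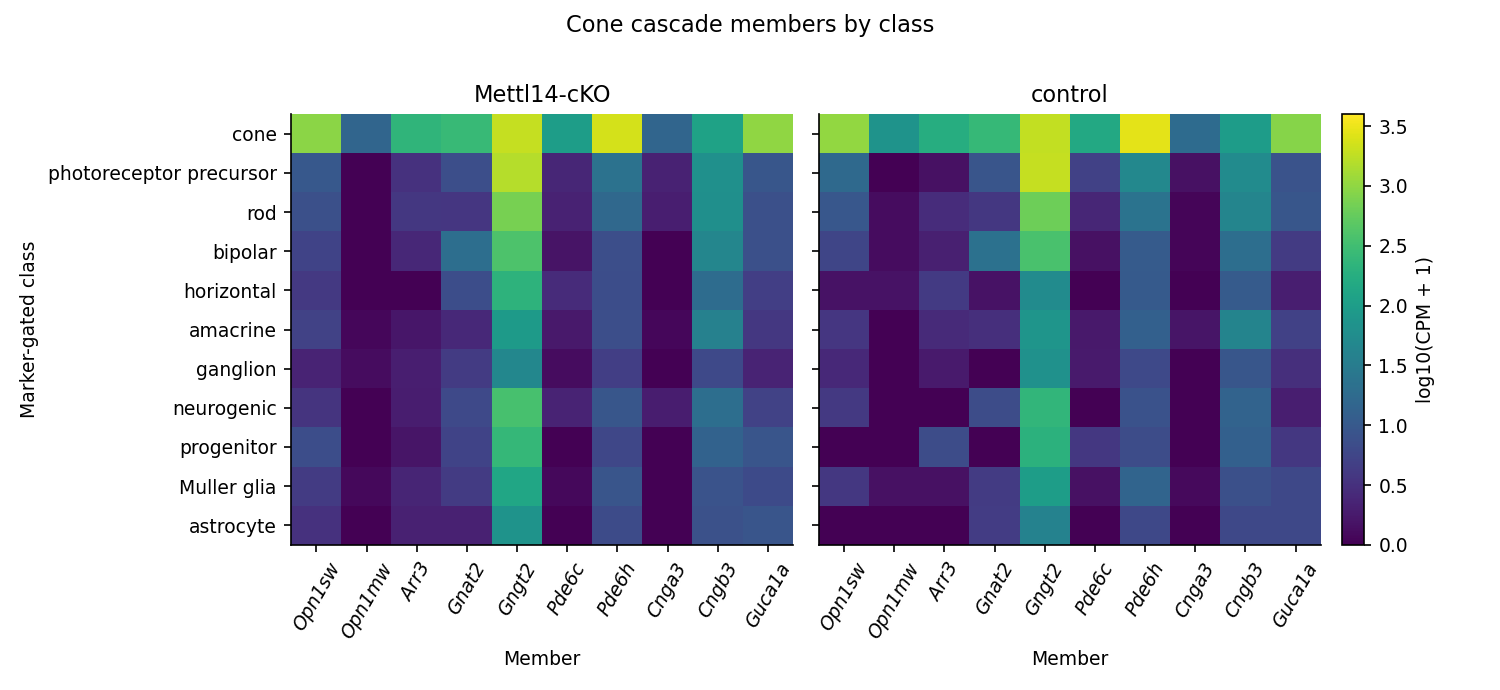
Level of each member, as log10(CPM + 1), in 11 marker-gated classes of the Mettl14-cKO library (left) and the control library (right). Most members are bright in the cone row alone, whereas Gngt2 and Cngb3 extend through precursors, rods and other classes.

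Some members differed between the libraries in classes other than cones. Cngb3 was called higher in Mettl14-cKO bipolar barcodes, at 43.6 CPM (230 UMIs) against 18.8 CPM (172 UMIs) in control ones, a ratio of 2.32 (1.90 to 2.84). Of all genes in bipolar barcodes 9.34% were called higher. Over bipolar barcodes with under 5 rod marker UMIs per 10000 the ratio was 2.25 (1.51 to 3.42). Gngt2 was called higher in Mettl14-cKO horizontal barcodes, at 212 CPM (352 UMIs) against 52.8 CPM (102 UMIs) in control ones, where 7.41% of genes were called higher, and the ratio over barcodes low in rod markers was 4.22 (2.66 to 6.94). In neurogenic barcodes Gngt2 stood at 358 CPM in the Mettl14-cKO library and 230 CPM in the control library, a ratio of 1.55 (1.35 to 1.80), with 6.32% of genes called higher there. Pde6h was called lower in Mettl14-cKO precursors, at 21.7 CPM (105 UMIs) against 47.3 CPM (109 UMIs) in control ones, where 7.37% of genes were called lower. A single control barcode held 35 of those 109 UMIs and a single Mettl14-cKO barcode 23 of the 105. It was also called lower in amacrine barcodes, at 6.33 CPM (40 UMIs) in the Mettl14-cKO library and 11.9 CPM (62 UMIs) in the control library, where 4.85% of genes were called lower. Over amacrine barcodes with under 5 rod marker UMIs per 10000 its ratio was 0.650 (0.313 to 1.37; 19 Mettl14-cKO and 15 control UMIs), an interval that includes 1. In bipolar barcodes, which should lack it as well, it stood at 6.44 CPM in the Mettl14-cKO library and 9.95 CPM in the control library, and was not called. Nor was Pde6h called in Müller glia barcodes, at 7.82 CPM in the Mettl14-cKO and 13.6 CPM in the control library. In rod barcodes it stood at 15.6 CPM in the Mettl14-cKO and 22.7 CPM in the control library, also without a call. In neurogenic, astrocyte and pericyte barcodes the Mettl14-cKO library stood higher, without a call or with too few UMIs for a ratio.

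Other phototransduction genes were read from lists in the same cone barcodes, in CPM. Of 14 cone or shared genes that are no members, 0 were called lower and 1 was called higher, with a median log2 ratio of -0.24 in cone barcodes and -0.16 in rod barcodes, against -0.06 and -0.05 for all genes. Of all genes in cone barcodes 7.36% were called lower and 9.36% higher. The gene called higher was Guca1b, which encodes the calcium sensor GCAP2, at 48.9 CPM in the Mettl14-cKO library and 30.3 CPM in the control library. Among those with the most UMIs, Pdc, which binds transducin beta and gamma subunits, stood at 4355 CPM in the Mettl14-cKO library and 5137 CPM in the control library. Rcvrn, the calcium sensor recoverin, stood at 2301 CPM in the Mettl14-cKO library and 2220 CPM in the control library. Unc119, which binds the lipid tail of transducin alpha subunits, stood at 2180 CPM in Mettl14-cKO and 2705 CPM in control cone barcodes. Gnb3, the beta subunit of cone transducin, stood at 823 CPM in Mettl14-cKO and 904 CPM in control cone barcodes, a log2 ratio of -0.14.

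Of 11 rod counterparts 5 were called lower and 1 higher in cone barcodes, with a median log2 ratio of -0.29 there and -0.08 in rod barcodes. The shares over all genes in cone barcodes were 7.36% lower and 9.36% higher. Sag, Gnb1, Gngt1 and Pde6b were among those lower. Gngt1, the rod gamma subunit, stood at 3403 CPM in Mettl14-cKO and 6362 CPM in control cone barcodes. Pde6b, a catalytic subunit of the rod enzyme, had a log2 ratio of -1.11 in cone barcodes and -0.91 in rod barcodes. Gnat1, the rod transducin alpha subunit, was called higher, at 218 CPM in Mettl14-cKO and 120 CPM in control cone barcodes, and at 251 CPM in Mettl14-cKO and 118 CPM in control rod barcodes. The same 6 genes were called in the same direction in rod barcodes, where 8.27% of all genes were lower and 9.98% higher, and these values in cone barcodes stand beside the rod marker levels given above, whose part in them was not tested.

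Regulators of photoreceptors and opsins were measured for 19 of 20 genes, Dio3 being at 0 in both libraries. Of these, 2 were called lower and 2 higher, with a median log2 ratio of -0.28 in cone barcodes and -0.16 in rod barcodes. Over all genes in cone barcodes 7.36% were called lower and 9.36% higher, so these counts are close to the background. Rxrg, a retinoid X receptor that in mice restrains Opn1sw, stood at 62.3 CPM in Mettl14-cKO and 32.2 CPM in control cone barcodes (ratio 1.93, 1.64 to 2.28). It was also called higher in rod barcodes, at 59.1 CPM in the Mettl14-cKO library and 15.8 CPM in the control library. Nr2f1, an orphan nuclear receptor, stood at 21.0 CPM (135 UMIs) in Mettl14-cKO and 6.003 CPM (44 UMIs) in control cone barcodes, a log2 ratio of 1.81, beside 12.5 CPM in Mettl14-cKO and 9.33 CPM in control rod barcodes. Rora, a nuclear receptor that in mice promotes cone opsin expression, was called lower, at 174 CPM in the Mettl14-cKO library and 324 CPM in the control library. It was also called lower in rod barcodes, at 146 CPM in the Mettl14-cKO library and 261 CPM in the control library. Rxra was the other gene called lower, at 18.5 CPM in Mettl14-cKO and 30.7 CPM in control cone barcodes. Thrb, the thyroid hormone receptor that Opn1mw requires in mice, stood at 141 CPM (907 UMIs) in Mettl14-cKO and 186 CPM (1363 UMIs) in control cone barcodes, a ratio of 0.759 (0.697 to 0.826) that was not called. Crx, a homeodomain activator of photoreceptor genes, stood at 618 CPM in Mettl14-cKO and 791 CPM in control cone barcodes. Nr2e3, a nuclear receptor of rods, stood at 2903 CPM in Mettl14-cKO and 3037 CPM in control cone barcodes, and Neurod1, a bHLH factor of photoreceptors, at 1642 CPM in Mettl14-cKO and 1912 CPM in control ones.

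The genes most like each member were sought by Pearson's r of log2 CPM over 22 points, which are 11 classes in the 2 libraries, among 12962 genes. The points share libraries and differ in depth, so r is a description. For Opn1sw the closest were Abi3 (0.95) and Spint1 (0.93), for Opn1mw Kcne2 (0.94) and Abi3 (0.93), and for Arr3 Spint1 (0.93) and Kcne2 (0.92). Pde6c and Pde6h were both closest to Spint1 (0.94 and 0.96) and Abi3 (0.93 and 0.96). Abi3 had 385 UMIs over all barcodes and Spint1 223. Abi3 overlaps the member Gngt2 on the opposite strand, and whether their reads were kept apart is not shown here. Gnat2 was closest to Tafa3 (0.89) and Kcne2 (0.88), Cnga3 to Fzd10 (0.95) and Spint1 (0.94), and Guca1a to Fzd10 (0.95) and Gckr (0.94). The members spread over many classes had other neighbours, Fam89a (0.96) and 6530402F18Rik (0.96) for Gngt2 and Tnks2 (0.94) and Ctr9 (0.92) for Cngb3.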

How the data were processed

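Single-cell RNA of P7 retina was measured in 1 library per genotype. The deposited matrices are raw UMI counts, made by the authors with Cell Ranger 6.1.1 on mm10, per the submitters' processing notes and the file headers; whether counting used strand is not given in the sources used here. The Mettl14-cKO library held 15319 barcodes with 59856468 UMIs and the control library 13287 with 55921787, and no barcode had under 500 UMIs.

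Barcodes with at least 1000 UMIs were kept (13502 Mettl14-cKO, 11426 control). Cones were gated first, at 4 of 9 members. Each other barcode took the class whose markers had the highest mean z score (log counts per 10000, capped at 5), at 0.5 or more with 3 or more markers found, and was unassigned otherwise. No doublet caller was run; leaving out barcodes with a second class was an alternative. Counts were added up within each class of a library and expressed as CPM, with exact Poisson intervals, exact conditional intervals for ratios and exact Clopper-Pearson intervals for shares, in Python 3.11.15 with scipy 1.17.1. The count of UMIs behind a value sets the width of its interval. Members, lists, tests and alternatives were chosen with earlier results of these data known; the cone gate, the scoring of classes and the added scales were chosen after the data were seen. Named were all members, Mettl14, list genes that were called with up to 4 more of the most UMIs per list (Thrb and the genes of single classes were chosen after their values were seen), and the 2 genes most like each member. The alternatives covered edgeR 4.0.16 TMM scaling, totals, barcode filters, gates, clusters (leidenalg 0.10.2), thinning to 1500 UMIs with seed 7, background, fold thresholds and scale. Reads and empty droplets were not used, and the values of some genes are not reported here.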

Additional observations from a re-analysis of the deposited data

How the results depend on the processing

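No paired analysis was possible because each genotype has 1 library. Opn1mw stayed negative in all 16 alternatives, with log2 ratios of -2.77 (gate of cone markers that are no members) to -0.88 (cone cluster built without members). Cngb3 stayed positive in 16 (0.12 to 1.01). The sign changed in 1 alternative for Pde6c, Pde6h and Cnga3, in 2 for Opn1sw, Arr3 and Guca1a and in 5 for Gnat2 and Gngt2. Cnga3 had too few UMIs for a ratio without barcodes of any second class.

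The number of members called lower, 1, became 4 with the gate of other cone markers and 2 without barcodes of any second class, with 1 more marker in the gate, as mean UMIs per barcode and at the lower fold threshold. The number called higher, 0, became 5 in the cone cluster and 1 at the lower fold threshold. The median log2 ratio, -0.06, became -0.37 with the gate of other cone markers, 0.52 in the cone cluster, -0.20 as mean UMIs per barcode and -0.14 under 6000 UMIs. The cone share, 3.58% in the Mettl14-cKO library and 4.36% in the control library, became 4.68% and 5.84% at 2000 UMIs or more, 1.85% and 2.54% thinned, 0.667% and 1.55% in the cone cluster, 0.274% and 0.193% without barcodes of any second class, and 4.42% and 3.95% with the gate of other cone markers. The direction of the cone share thus turned in the last 2, and the cause was not tested. Rxrg, a marker of the last of these gates, stood at 59.1 CPM in Mettl14-cKO and 15.8 CPM in control rod barcodes. The share with Opn1mw at 1500 UMIs, 2.31% in the Mettl14-cKO library and 9.46% in the control library, became 10.3% and 24.5% unthinned. At 1500 UMIs it became 6.45% in the Mettl14-cKO and 9.09% in the control library without barcodes of any second class, and 4.88% in the Mettl14-cKO and 9.77% in the control library in the cone cluster. The gate of other cone markers gave 597 Mettl14-cKO and 451 control barcodes, of which 384 Mettl14-cKO and 386 control barcodes were in the main gate. TMM scaling, totals without mitochondrial and ribosomal protein genes, the filter on genes and mitochondrial UMIs, thinning, subtracted background and shared barcodes moved neither number of calls. Cnga3 and Opn1mw were limited by depth, with under 100 UMIs each in the Mettl14-cKO library.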

Other observations

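Guca1a was also present in microglia of the Mettl14-cKO library, where 31 of 116 barcodes held 38 UMIs and no barcode held more than 3. This was 50.5 CPM (35.7 to 69.3), against 19.4 CPM (6.31 to 45.3; 5 UMIs) in 49 control microglia barcodes, a ratio of 2.60 (1.02 to 8.46) that was not called. Cones apart, the other classes with UMIs of Guca1a, unassigned barcodes included, lay between 1.31 and 9.30 CPM in the Mettl14-cKO library and between 0.996 and 8.33 CPM in the control library.

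Barcodes that fitted no class, 3457 in the Mettl14-cKO library and 1551 in the control library, held Cngb3 at 37.0 CPM in the Mettl14-cKO and 22.5 CPM in the control library. Pde6h stood there at 11.0 CPM in the Mettl14-cKO and 20.6 CPM in the control library, and Gngt2 at 629 CPM in the Mettl14-cKO and 584 CPM in the control library. Among barcodes with under 1000 UMIs, 2 in the Mettl14-cKO library and 5 in the control library passed the cone gate and entered no comparison.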
